A study of Mus musculus with 6 samples.

Results

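The genes for hnRNPK and the poly(C)-binding proteins, Hnrnpk, Pcbp1, Pcbp2, Pcbp3 and Pcbp4, were followed in RNA recovered with an antibody against hnRNPK and in total RNA of the same kind of lysate. They were chosen by name as KH-domain proteins that bind C-rich RNA, and are 5 of the 53379 genes in each count table. The cells were Min6, a mouse insulinoma line used as a model of the pancreatic beta cell, at passage 31. All 6 libraries share one treatment, which the labels call glucolipotoxicity: for 30 h before harvest the medium held glucose at 25 mM and palmitic acid at 500 µM. The groups are 3 libraries of hnRNPK IP RNA and 3 of total RNA from a 10% input of lysate. Untreated cells and an IP with a control antibody were not analysed here, so RNA held by beads or antibody alone is part of the IP signal. The labels leave unsaid whether replicate libraries stem from separate cultures, so p-values measure only the spread between libraries, which may be technical.

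hnRNPK and the poly(C)-binding proteins form a family of RNA-binding proteins whose KH domains grip short runs of cytosine in single-stranded RNA. hnRNPK acts in transcription, splicing, mRNA stability and translation. PCBP1 and PCBP2 stabilise mRNAs with C-rich 3′ UTRs, control translation, and also deliver iron to ferritin and other iron proteins. Pcbp1 has no introns and is thought to descend from a retrotransposed Pcbp2 transcript, whereas PCBP3 and PCBP4 are less studied relatives, the latter known as a p53-induced gene. An RNA-binding protein can bind its own mRNA or that of a relative, and the comparison of IP with total RNA asks which of these mRNAs were over- or under-represented beside hnRNPK protein.

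Because hnRNPK favours runs of C, the 30-base stretch richest in C was located in the annotated 3′ UTR of each gene's longest coding transcript. The 5 stretches are shown with runs of at least 3 C in capitals, 5′ to 3′ on the transcript strand.
Hnrnpk: aattttccagCCCaCCCCtaaactaaacac
Pcbp1: tcgctcgtaaCCCCCttcctgctgtttCCC
Pcbp2: tgCCCtcaatcacctCCCCCtccatgatac
Pcbp3: gctccagCCCgcagcctcaccagctggcac
Pcbp4: gacgcatggatgcaCCCCCtaCCCtgCCCC
These lie at chr13:58391873-58391902 (minus strand), chr6:86524803-86524832 (minus), chr15:102499053-102499082 (plus), chr10:76762426-76762455 (minus) and chr9:106463534-106463563 (plus) of GRCm38, the build also called mm10. The sequences come from GENCODE release M21. They hold 12 C in Hnrnpk, 14 in Pcbp1 and 15 each in Pcbp2, Pcbp3 and Pcbp4. Such stretches are common: 88.6%, 72.3% and 60.8% of the 12867 tested genes with a 3′ UTR of at least 100 nt have a window with at least 12, 14 and 15 C.

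The letters CCCC, searched on the transcript strand with overlaps allowed, occur 11 times in the 1536-nt 3′ UTR of Pcbp2, 7 times in the 593 nt of Pcbp4, 4 times in the 1301 nt of Hnrnpk, 2 times in the 353 nt of Pcbp1 and 0 times in the 630 nt of Pcbp3. Of all the 3′ UTRs compared, 84.2% hold at least 1 CCCC. Per kb, Pcbp4 (11.8) and Pcbp2 (7.16) lay at percentiles 90.0 and 77.0, and Hnrnpk (3.07) at 46.3. The letters TCCC, which can overlap CCCC and occur in 91.3% of those 3′ UTRs, gave 7 matches in Pcbp2, 5 in Pcbp4 and 2 in each of the others. By overall base composition the 3′ UTR of Hnrnpk is among the poorest in C, at 14.4% (percentile 2.70), and that of Pcbp1 is close to it, at 15.3% (percentile 4.72). Pcbp2 was near the middle (percentile 41.5), and Pcbp4 near the top, with 29.7%. Pcbp3 had 26.3% C (percentile 79.3). These matches describe letters and not sites of binding.

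The libraries held 38764925 to 52735957 counts each. IP libraries detected 17471 to 21306 genes and total RNA libraries 21805 to 22625. All 9 beta cell markers examined had at least 1 CPM in both groups (CPM is the read count scaled by library size, here with the trimmed-mean, or TMM, factors of edgeR), with summed levels of 21591 to 31074 CPM in total RNA and 5960 to 7343 CPM in the IP. Ins2 and Iapp carried these sums, with means of 10471 and 14161 CPM in total RNA against 1953 and 1461 in the IP. The mean was also lower in the IP for Ins1 and G6pc2, and higher for the other 5, such as Pdx1 (323 CPM in total RNA, 925 in the IP) and Nkx6-1 (368 and 993). Of 6 exocrine and duct markers none reached a mean of 1 CPM in either group, and the acinar genes Cpa1, Prss1 and Amy2a5 had no read in any library. Other islet endocrine markers summed to 139 to 174 CPM in total RNA and 127 to 175 in the IP. Stromal, endothelial and immune markers summed to 2.78 to 4.04 CPM in total RNA and 5.58 to 8.39 in the IP, without overlap, and the part of such RNA in the results was not tested.

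All 5 genes passed the filter on low counts, and they divided. Pcbp2 and Pcbp3 mRNAs were enriched in the IP, 4.77-fold and 1.99-fold, while Hnrnpk, Pcbp1 and Pcbp4 mRNAs were depleted, 1.34-fold, 1.36-fold and 1.66-fold. Thus 2 of 5 were enriched and 3 of 5 depleted at an adjusted p under 0.05 (quasi-likelihood test of edgeR with Benjamini-Hochberg adjustment over all genes, as in every adjusted p given for a gene here), where among all 16929 genes tested 28.9% were enriched, 33.6% depleted and 62.4% either. In all 5 the IP and total RNA libraries did not overlap, as was the case for 71.4% of all genes tested. Being called was therefore common in this comparison, and the size of a difference says more than the call. By log2 fold change Pcbp2 lay at percentile 95.9 of all genes, Pcbp3 at 75.7, Hnrnpk at 41.6, Pcbp1 at 41.0 and Pcbp4 at 34.6.

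**Figure D1:**
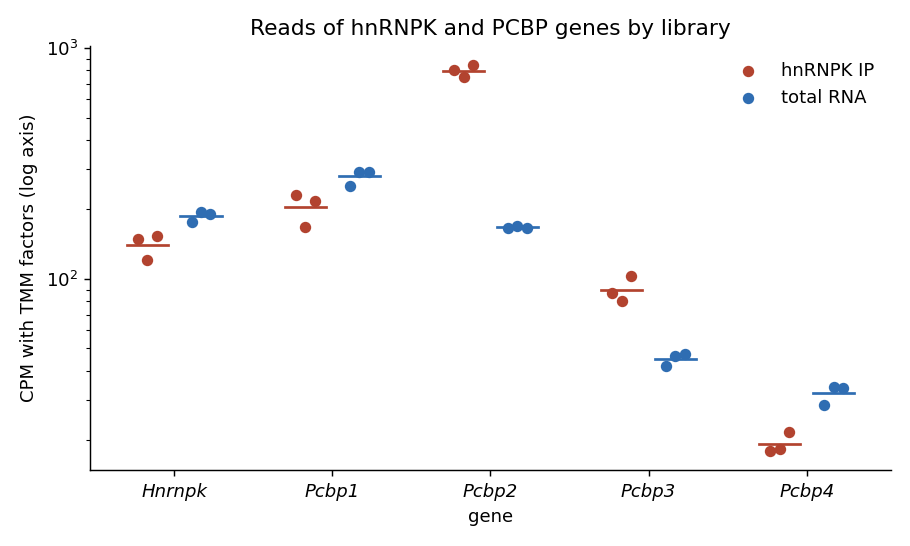
CPM with TMM factors (y axis, log scale) of the 5 genes (x axis) in 3 hnRNPK IP libraries (red) and 3 total RNA libraries (blue); points are libraries and lines are group means. Pcbp2 stood at 750 to 843 CPM in the IP against 166 to 170 in total RNA, and in none of the genes did the groups overlap.

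Pcbp2 (ENSMUSG00000056851.13 in the deposited tables, chr15:102470539-102500061, plus strand) encodes the poly(C)-binding protein best known for controlling the stability and translation of cellular and viral RNA. Its reads came to 803, 750 and 843 CPM in IP libraries 1, 2 and 3 and to 166, 170 and 167 CPM in total RNA libraries 1, 2 and 3. Every IP library was thus far above every total RNA library, and the total RNA libraries lay close together. The group values were 799 ± 46.8 and 168 ± 1.78 CPM (SD, n = 3 each), and IP minus total RNA came to 2.25 ± 0.08 as a log2 fold change (SE; adjusted p = 1.26e-06, edgeR). All 22 alternative settings kept direction and call, with values from 1.82 to 2.43.

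Pcbp2 shares its 3′ end with Map3k12, a kinase gene on the opposite strand (chr15:102497646-102517064). Of the merged exons of Pcbp2, 1573 nt (30.2%) are also exon of Map3k12, and so are 48.1% of the 50-nt windows of its longest coding transcript. The C-rich stretch printed for Pcbp2 lies in this shared part. The sources used here do not give the strand setting of the counting, so reads there cannot be assigned to a strand. Map3k12 itself averaged 26.2 ± 3.99 CPM over IP libraries and 24.0 ± 2.06 over total RNA libraries (SD, n = 3 each). Its log2 fold change of 0.13 ± 0.15 was not called (edgeR, adjusted p = 0.494). Its reads equalled 2.80% to 4.06% of the Pcbp2 reads in IP libraries and 13.0% to 15.1% in total RNA libraries. Taking all of them off the Pcbp2 counts, a check added after the data were seen, gave a log2 fold change of 2.43 ± 0.08. As they equalled a larger part of the Pcbp2 reads in total RNA, taking them off could only raise this value. The check therefore cannot show what part reads of Map3k12 had in the Pcbp2 counts.

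Pcbp3 (ENSMUSG00000001120.15, chr10:76761857-76961887, minus strand) encodes a less studied family member and was the other enriched mRNA. It had 87.0, 80.0 and 103 CPM in IP libraries 1 to 3 and 42.0, 46.3 and 47.1 CPM in total RNA libraries 1 to 3. The lowest IP library was well above the highest total RNA library. As a log2 fold change this was 0.99 ± 0.12 (adjusted p = 0.000161, edgeR), and it stayed called in all 20 alternatives, between 0.56 with library totals alone and 1.38 with an offset for gene length. None of its 50-nt windows occurs in a transcript of another gene.

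Hnrnpk (ENSMUSG00000021546.18, chr13:58391142-58403343, minus strand) encodes the protein that the antibody recognises. Its own mRNA had 148, 121 and 154 CPM in IP libraries 1 to 3 and 177, 195 and 192 CPM in total RNA libraries 1 to 3. The groups lay close, with IP library 2 lowest and total RNA library 1 nearest to the IP. As a log2 fold change this was −0.42 ± 0.11 (adjusted p = 0.0114, edgeR). The call ended without total RNA replicate 2, at −0.35, without total RNA replicate 3, at −0.37, and with an offset for GC content, at −0.32 (edgeR, adjusted p = 0.0687, 0.0631 and 0.0550, alternatives spanning 0.000312 to 0.0734).

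Reads of Hnrnpk cannot be separated fully from those of 2 processed pseudogenes. Gm7964 (chr7:83755904-83757281) matches the Hnrnpk mRNA at 99.2% over 1378 nt, and Gm4130 (chr13:91261449-91262418) at 97.4% over 973 nt. Together they hold 34.5% of the 50-nt windows of the longest Hnrnpk coding transcript without a difference. Gm7964 was given 109, 110 and 124 CPM in IP libraries 1 to 3 and 145, 153 and 149 in total RNA libraries 1 to 3. Its share of all reads given to Hnrnpk, Gm7964 and Gm4130 was 41.0% to 46.0% in IP libraries and 42.5% to 43.8% in total RNA libraries. The groups overlapped in this share. Gm7964 itself had a log2 fold change of −0.38 ± 0.09 (edgeR, adjusted p = 0.00566), and Gm4130 one of −0.22 ± 0.18 that was not called (adjusted p = 0.327). With the reads of both copies added to Hnrnpk, chosen after the data were seen, its log2 fold change was −0.40 ± 0.09 (edgeR, adjusted p = 0.00557). The level of Hnrnpk mRNA is thus uncertain by the reads given to its copies, while its difference between IP and total RNA went only from −0.42 to −0.40.

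**Figure D2:**
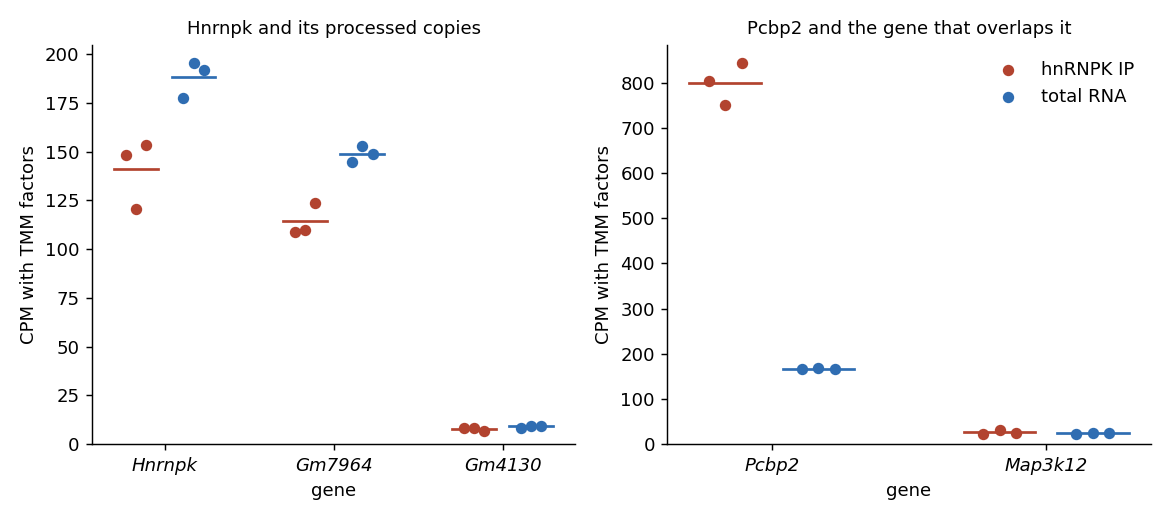
CPM with TMM factors (y axes, from 0) of Hnrnpk beside its processed pseudogenes Gm7964 and Gm4130 (left) and of Pcbp2 beside Map3k12, which overlaps it on the other strand (right); points are libraries, lines are group means, hnRNPK IP in red and total RNA in blue. Gm7964 had 109 to 124 CPM in IP libraries and 145 to 153 in total RNA libraries, and Map3k12 stayed near 25 CPM in both groups where Pcbp2 differed 4.77-fold.

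Pcbp1 (ENSMUSG00000051695.6, chr6:86524492-86526321, minus strand, a single exon of 1830 nt) encodes the relative closest to PCBP2. The coding sequences of the 2 genes were identical at 81.6% of 1056 aligned bases, but no 50-nt window was shared, so reads of that length would tell them apart. Pcbp1 had 231, 167 and 218 CPM in IP libraries 1 to 3 and 254, 292 and 290 CPM in total RNA libraries 1 to 3. IP library 2 was lowest and the gap between the groups was narrow. As a log2 fold change this was −0.44 ± 0.13 (adjusted p = 0.0197, edgeR).

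The direction for Pcbp1 rests on how transcript length is treated. The gene is short, at percentile 21.8 of merged exon length among the genes tested. With an offset that removes the trend of each library against gene length, its log2 fold change became 0.39 ± 0.09, called as enriched (edgeR, adjusted p = 0.00436). Using the length of the longest coding transcript, added after the data were seen, gave 0.30 ± 0.08 (edgeR, adjusted p = 0.00966). The call of depletion also ended without total RNA replicate 2 (−0.37), without total RNA replicate 3 (−0.38) and with the offset for GC content (−0.24), where edgeR gave adjusted p = 0.0930, 0.0918 and 0.0519 (alternatives spanning 0.000672 to 0.0934).

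Pcbp4 (ENSMUSG00000023495.13, chr9:106453291-106464012, plus strand), the p53-induced member, had the fewest reads of the family. It had 18.0, 18.4 and 21.7 CPM in IP libraries 1 to 3 and 28.4, 34.0 and 33.8 CPM in total RNA libraries 1 to 3. These values rest on 606 to 870 reads in each IP library and 1768 to 1833 in each total RNA library. As a log2 fold change this was −0.73 ± 0.14 (adjusted p = 0.00203, edgeR). It kept its call in 19 of 20 alternatives, and lost it with the offset for transcript length, at −0.14 (edgeR, adjusted p = 0.331, alternatives spanning 5.41e-05 to 0.331).

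With library totals in place of TMM factors the median log2 fold change of all genes went from −0.07 to −0.51, and the 5 genes went down with it without a change of call. Pcbp2 was then at 1.82, Pcbp3 at 0.56, Hnrnpk at −0.85, Pcbp1 at −0.87 and Pcbp4 at −1.16. Without a spiked-in standard, each value is relative to the other genes.

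**Figure D3:**
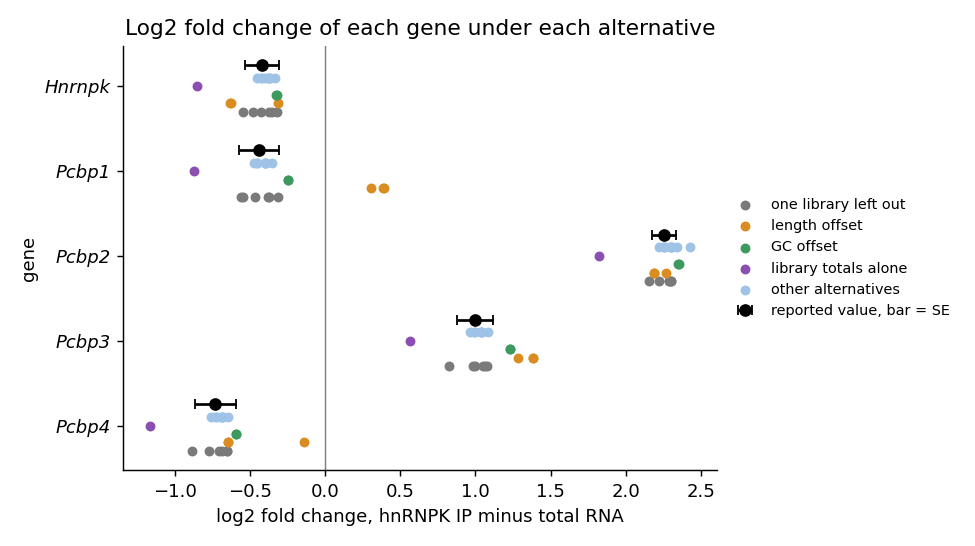
Log2 fold change, hnRNPK IP minus total RNA (x axis), of each gene (y axis): black points with SE bars are the reported values, and coloured points are the alternative settings by kind. The 5 genes kept their side of 0 except Pcbp1, which lay at 0.30 to 0.39 with the offsets for length.

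Ratios of 2 genes within a library do not depend on any scaling between libraries, but they still carry any trend of a library with gene length. Per library, Pcbp1 had 0.287, 0.223 and 0.258 reads for each read of Pcbp2 in the IP and 1.53, 1.72 and 1.74 in total RNA. Pcbp1 was thus the more read of the 2 genes in every total RNA library and the less read in every IP library, and the ratio fell 6.51-fold. Hnrnpk had 0.185, 0.161 and 0.182 reads per Pcbp2 read in the IP and 1.07, 1.15 and 1.15 in total RNA, a 6.39-fold lower ratio. For Pcbp2 over Pcbp4 the ratio was 44.7, 40.8 and 38.9 in the IP and 5.85, 4.99 and 4.94 in total RNA, 7.89-fold higher. Pcbp2 also exceeded the other enriched gene, Pcbp3, with 9.24, 9.37 and 8.20 reads per Pcbp3 read against 3.96, 3.66 and 3.55. With the gene-length offset, log2 fold changes were 2.19 for Pcbp2, 1.38 for Pcbp3, 0.39 for Pcbp1, −0.62 for Hnrnpk and −0.64 for Pcbp4. Pcbp1, Pcbp3 and Pcbp4 were then nearer to Pcbp2 than without the offset, and Hnrnpk was farther from it. The size of these ratio changes thus depends on how length is treated.

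Of the 10 pairs of genes, 9 had ratios that did not overlap between the groups. Each of these had p = 0.1 in an exact permutation test, two-sided, the smallest p that 3 libraries against 3 allow, and 0.111 after Benjamini-Hochberg adjustment over the 10 pairs. The pairs reuse the same genes and restate their fold changes. How many pairs among all genes tested would not overlap was not computed. Of single genes tested, 71.4% did not overlap, which is not a share of pairs. The count of pairs is therefore not read as a trait of this family. The remaining pair was Hnrnpk and Pcbp1, with 0.644, 0.721 and 0.705 Hnrnpk reads per Pcbp1 read in the IP and 0.699, 0.670 and 0.661 in total RNA. The mean log2 ratios of this pair were −0.54 ± 0.09 and −0.56 ± 0.04 (SD, n = 3 each), which overlapped (exact permutation test, two-sided, p = 0.7). A test of 3 libraries against 3 cannot show that the ratios were equal. By their own fold changes, with lengths left out of account, both mRNAs were lower in the IP by similar factors. With the gene-length offset Hnrnpk was at −0.62 and Pcbp1 at 0.39, on opposite sides of 0.

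Levels of different genes were compared per kb of merged exons. In total RNA Pcbp1 led at 152 ± 11.8 CPM per kb, followed by Pcbp2 at 32.2 ± 0.342, Hnrnpk at 29.1 ± 1.48, Pcbp3 at 15.4 ± 0.943 and Pcbp4 at 7.52 ± 0.748 (SD, n = 3 each). In the IP Pcbp2 led at 154 CPM per kb (144 to 162 in the 3 libraries), before Pcbp1 at 112 ± 18.2, Pcbp3 at 30.7 ± 3.98, Hnrnpk at 21.8 ± 2.74 and Pcbp4 at 4.54 ± 0.478. No neighbours in either order overlapped between libraries under this length. The place of Hnrnpk depends on the length used, because its merged exons (6466 nt, with retained introns) far exceed its longest coding transcript (2970 nt). Per kb of that transcript Hnrnpk had 63.4 ± 3.22 CPM in total RNA, above Pcbp2 at 52.0 ± 0.552, and 47.4 ± 5.97 in the IP, above Pcbp3 at 35.3 ± 4.58. Reads given to the copies Gm7964 and Gm4130 are left out of these levels, so the place of Hnrnpk depends on them too. Before division by length, Hnrnpk had 177 to 195 CPM in total RNA libraries and 121 to 154 in IP libraries. With both copies added these were 331 to 358 and 239 to 284 CPM.

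As shares of the reads per kb of the whole family, Pcbp2 made up 45.8%, 50.4% and 47.0% in IP libraries 1 to 3 and 14.6%, 13.2% and 13.1% in total RNA libraries 1 to 3. Pcbp1 made up 37.4%, 32.0% and 34.5% in the IP and 63.3%, 64.8% and 64.9% in total RNA. The leading member was therefore Pcbp2 in every IP library and Pcbp1 in every total RNA library. Hnrnpk held 6.74 ± 0.189% in the IP and 12.3 ± 0.198% in total RNA, Pcbp3 9.50 ± 0.683% and 6.51 ± 0.0792%, and Pcbp4 1.41 ± 0.140% and 3.17 ± 0.117% (SD, n = 3 each). For each gene the groups did not overlap (exact permutation test, two-sided, p = 0.1, the smallest possible). Shares within a library are parts of the same whole, so a larger share of Pcbp2 lowers the sum of the others. The differences in share are thus not separate results for each gene.

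**Figure D4:**
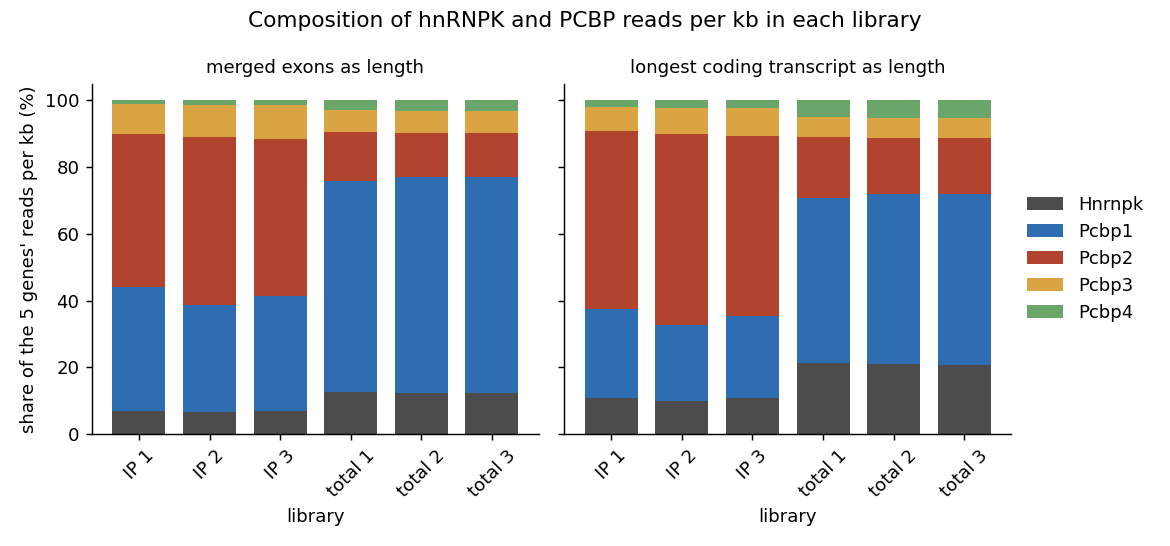
Share of the reads per kb of the 5 genes (y axis, %) in each library (x axis), with merged exons (left) or the longest coding transcript (right) as the length. Pcbp2 is the largest part in the 3 IP libraries, at 45.8% to 50.4% with merged exons, and Pcbp1 in the 3 total RNA libraries, at 63.3% to 64.9%.

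Among 10241 tested genes with at least 5 CPM on average, those whose pattern over the 6 libraries was nearest to each member were found by the root mean square difference of log2 CPM, each gene centred on its own mean. Nearest to Pcbp2 were Zmiz2 (0.024), a coactivator of transcription, Fto (0.029), an RNA demethylase, and Fbxl16 (0.030), an F-box protein. Fto averaged 296 ± 9.53 CPM over IP libraries and 61.8 ± 0.635 over total RNA libraries (SD, n = 3 each). Nearest to Pcbp3 were Ino80c (0.026), a chromatin remodelling subunit, Pofut2 (0.035), a fucosyltransferase, and Hgs (0.046), an endosomal sorting factor. Nearest to Hnrnpk were Mfsd11 (0.033), Lrrc47 (0.036) and Ybx3 (0.039), the last another RNA-binding protein, with 234 ± 29.6 against 312 ± 12.1 CPM. Pcbp1 was nearest to Adam15 (0.035), Pgd (0.048) and Prpsap1 (0.052), and Pcbp4 to Rfxap (0.042), Kif12 (0.042) and Apbb1 (0.045). With 6 libraries in 2 groups this measure weighs mostly the difference between the groups.

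Other genes for KH-domain proteins went both ways. Of 33 listed, 32 were tested (Igf2bp1 fell under the filter), and 10 (31.3%) were enriched and 9 (28.1%) depleted, near the 28.9% and 33.6% of all genes tested, with a median log2 fold change of 0.12 against −0.07 for all genes tested. Nova2, a neuronal splicing regulator, was enriched, from 16.5 CPM on average over total RNA libraries to 89.3 CPM over IP libraries (n = 3 each), at a log2 fold change of 2.43 ± 0.18. Igf2bp3, an mRNA-binding protein of the fetal stage, was listed highest at 2.50 ± 0.74, but rests on 19 to 25 reads per IP library and 4 to 10 per total RNA library, and its call ended in 7 of 19 alternatives. Exosc3, a subunit of the RNA exosome, was depleted at −2.15 ± 0.19, and Rps3, the KH-domain protein of the small ribosomal subunit, at −3.98 ± 0.30. Still called, Exosc3 was at −1.10 with the offset for gene length and −0.72 with that for transcript length, and Nova2 at 1.58 with the latter. With library totals alone 7 genes of the list were enriched, 16 were depleted and its median was −0.32. The offset for gene length gave a median of −0.11, and without total RNA replicate 3 its enriched genes numbered 6.

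Among 25 other hnRNP genes, 8 (32.0%) rose and 13 (52.0%) fell in the IP, where 28.9% and 33.6% of all genes did, and the median log2 fold change was −0.92. Highest were Ptbp3, a pyrimidine-tract-binding protein, at 2.02 ± 0.17, and Hnrnpul1 at 1.71 ± 0.16. Lowest were Hnrnph3 at −2.43 ± 0.20 and the splicing repressor Hnrnpa1 at −2.45 ± 0.12. Hnrnpa1 averaged 13.8 ± 1.43 CPM over IP libraries and 75.3 ± 4.85 over total RNA libraries (SD, n = 3 each). The log2 fold change of Pcbp2 was above that of all 25, and those of Hnrnpk, Pcbp1 and Pcbp4 lay between the median of this list and 0. Library totals alone left 5 enriched members of this list, and the offset for transcript length took Ptbp3 to 1.29, still called.

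Genes listed for iron handling, among them partners of PCBP1 and PCBP2, numbered 14. Of these, 3 were enriched (21.4%, against 28.9% of all genes tested) and 10 depleted (71.4%, against 33.6%), with a median log2 fold change of −0.59. Ireb2, an iron regulatory protein that binds iron-responsive elements, was enriched at 1.28 ± 0.08. It had 258 ± 2.75 CPM over IP libraries and 106 ± 2.18 over total RNA libraries (SD, n = 3 each). Ncoa4, the receptor that carries ferritin to autophagy, was enriched at 0.84 ± 0.13. With library totals alone Ireb2 was at 0.85 and Ncoa4 at 0.40, both still called. The gene-length offset gave 0.84 and 0.39, also still called. Ireb2 was at 0.69 with the offset for transcript length. The call of Ncoa4 ended with the replicate block and the gene-length offset together, at 0.39 (edgeR, adjusted p = 0.0586). The ferritin heavy chain Fth1, to whose protein PCBP1 delivers iron, was depleted, with 26.7 ± 9.72 CPM over IP libraries against 288 ± 46.4 over total RNA libraries, and had a log2 fold change of −3.43 ± 0.26. The light chain Ftl1 was at −3.45 ± 1.26, but all 24 of its IP reads lay in IP library 3 and its call ended in 6 of 20 alternatives. Both ferritin genes have processed copies in the genome, so their levels depend on how shared reads were assigned.

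**Figure D5:**
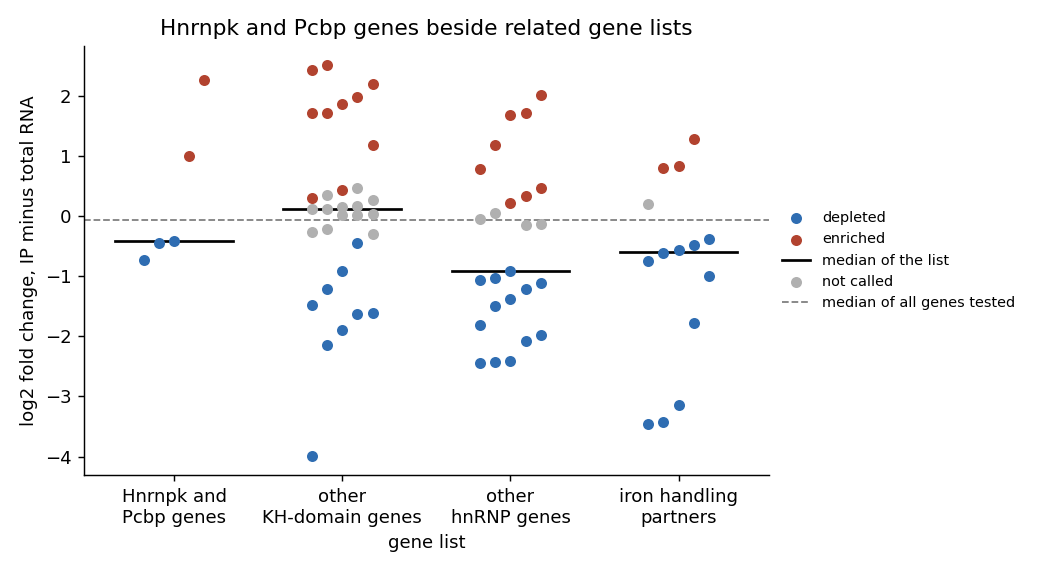
Log2 fold change, hnRNPK IP minus total RNA (y axis), of each tested gene (points) in 4 lists (x axis), coloured by call at an adjusted p under 0.05, with list medians as black lines and the median of all genes tested (−0.07) as a dashed line. Pcbp2, at 2.25, lies above all 25 other hnRNP genes, and Rps3, at −3.98, is the lowest point.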

How the data were processed

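RNA was measured in 3 hnRNPK IP and 3 total RNA libraries of Min6 cells, grouped by sample title. Each deposited table gives raw read counts per gene, with no normalization. The submitters' processing notes name mm10, TopHat2 and featureCounts as what the authors used. The sources used here do not give versions, annotation release, strand setting or treatment of multiply aligned reads. Of 53379 identifiers, 53274 matched GENCODE M21 (GRCm38), the source of symbols, coordinates, lengths and transcript sequences.

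Counts were fitted over the whole table in R 4.3.3 with edgeR 4.0.16 (TMM factors, filterByExpr with minimum count 10 and minimum total count 15, quasi-likelihood F test on the group alone, Benjamini-Hochberg adjustment over 16929 genes, threshold 0.05). The SE is the log2 fold change divided by the square root of F. CPM uses TMM factors, and log2 CPM a prior count of 2. Alternatives used DESeq2 1.42.0, limma 3.58.1, other factors and filters, halved counts (58.6% to 68.7% of counts of 1 to 20 were even in each library), length or GC offsets from a lowess trend, a replicate block, and each library left out. Copies were found with blastn 2.17.0 (at least 85% over 200 nt). Ratios and shares used exact permutation tests in scipy 1.17.1. The edgeR step was tested on simulated data in which few genes were changed, equally up and down. That simulation does not cover data such as these, where 62.4% of the genes tested were called. No pair of libraries in a group agreed within sampling noise (chi-square over degrees of freedom 6.40 to 123). Total RNA libraries 2 and 3 were by far the most alike, at 6.40. Total RNA library 1 was at 53.4 and 48.8 from them, and the IP pairs were at 40.2 to 123.

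Besides the members, genes were named as copies or overlapping genes, as the 2 highest and 2 lowest of each related list, or as the 3 nearest patterns. Members and lists were chosen with earlier results of these data known.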

Additional observations from a re-analysis of the deposited data

How the results depend on the processing

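Pcbp2 and Pcbp3 kept direction and call in the 22 and 20 alternatives run, Hnrnpk in 17 of 21, Pcbp1 in 13 of 20 and Pcbp4 in 19 of 20. The offset for GC content took Hnrnpk to −0.32 and Pcbp1 to −0.24, and the replicate block with that offset to −0.33 and −0.25, ending both calls. The offset for gene length turned Pcbp1 to 0.39, with the replicate block 0.38, and the offset for transcript length turned it to 0.30 and took Pcbp4 to −0.14. Leaving out 1 library gave −0.54 to −0.32 for Hnrnpk and −0.56 to −0.31 for Pcbp1. Enriched KH-domain genes numbered 5 with the replicate block and length offset and 6 to 9 with 1 library left out; depleted ones 16 under library totals and 15 under the offset for transcript length; enriched hnRNP genes 5 with library totals alone. Differences in family share (IP minus total RNA, percentage points) were, with the longest transcript as length, −10.6 for Hnrnpk, −25.8 for Pcbp1, 37.6 for Pcbp2, 1.91 for Pcbp3 and −3.12 for Pcbp4, and without exon bases shared with another gene −6.16 for Hnrnpk, 38.8 for Pcbp2 and 1.51 for Pcbp3. The cause of these changes was not tested, beyond the lengths used. Same-numbered libraries did not deviate together (r = 0.000874, −0.0709 and 0.120). Spread within either group can hide a shared lysate, so this check cannot decide on pairing, which remains unknown. The replicate block alone changed no member's call (Hnrnpk −0.42, Pcbp1 −0.45, Pcbp2 2.25, Pcbp3 0.99 and Pcbp4 −0.73). Depth was ample for the members, with at least 606 reads in a library for each, and limits Igf2bp3 and Ftl1.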

Other observations

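Apart from Rmi1, the remaining genes that overlap a member had low levels. As the strand setting is unknown, reads in exon bases shared with a member may belong to either gene. Gm26518, a noncoding RNA antisense to the upstream part of Pcbp2, was enriched, with 2.64 ± 1.02 CPM over IP libraries and 0.739 ± 0.183 over total RNA libraries (SD, n = 3 each) and a log2 fold change of 1.83 ± 0.46. 1600020E01Rik, antisense to the 5′ end of Pcbp1, was depleted at −1.20 ± 0.31, and Gpr62, which overlaps the end of Pcbp4, at −1.79 ± 0.45. Rmi1, a helicase partner that starts beside Hnrnpk on the other strand, averaged 22.0 ± 2.22 CPM over IP libraries and 25.0 ± 0.577 over total RNA libraries and was not called. Mir7-1, the precursor of the islet microRNA miR-7a that lies within an intron of Hnrnpk, had 0 to 7 reads per library, too few to test.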
